A study of Mus musculus with 8 samples.

Results

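The collagen genes were followed across 4 lists of H3K36me3 peaks. They were taken as the protein-coding genes of chromosomes 1 to 19 in GENCODE M21 (mouse, mm10) whose symbol is Col, a number, the letter a and a number, which gave 42 of 20722 genes. The body of each gene was its longest protein-coding transcript, from transcription start to end. The cells were i4F mouse embryonic fibroblasts (MEFs) from embryos of day 13.5, in which doxycycline switches on OCT4, SOX2, KLF4 and MYC (OSKM). All cells carried this cassette, came from Clone 1, which is the embryo the paper calls MEF 1, and were harvested 72 h after transfer to iPS cell medium. They were left without doxycycline (MEF), given 2 µM vitamin B12 without doxycycline (MEF B12), given doxycycline (OSKM), or given both (OSKM B12). The labels give doxycycline as 1 µg/ml and the methods of the paper as 1 mg/ml. For each of these there was 1 H3K36me3 library and 1 input library, so differences between conditions could not be checked against replicates and carry no p-value. Intervals cover counting error alone. In such bulk chromatin, fewer cells with the mark and less mark per cell cannot be told apart.

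Collagens are the triple-helical proteins of the extracellular matrix, and fibroblasts are their main source in connective tissue. Each chain is built from Gly-X-Y triplets, in which glycine, the smallest amino acid, sits at the axis of the helix. Fibrillar collagens form the load-bearing fibrils, network collagens form sheets such as the basement membrane, and other types decorate fibrils or anchor cells. H3K36me3 is a histone mark laid down by the methyltransferase SETD2, which travels with elongating RNA polymerase II along transcribed genes.

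Over all genes, the H3K36me3 libraries held 29046913 to 33399267 tags after duplicate removal, and the 4 lists held between 64364 and 67234 peaks on chromosomes 1 to 19. These peaks covered 150 Mb in MEF, 163 Mb in MEF B12, 91.8 Mb in OSKM and 163 Mb in OSKM B12. A gene was called marked where at least 10% of its body lay inside peaks. Of 13 mesenchymal genes other than collagens, such as Fn1 and Pdgfra, 11, 12, 10 and 11 were marked in the same order, whereas 0 of 6 epithelial, 0 of 4 skeletal muscle and 0 of 6 pluripotency genes were marked in any list. Of the other markers, Sox9 was marked in all lists, Comp (chondrocyte) and Tek (endothelial) in OSKM B12, Cd68 and Csf1r (haematopoietic) in all lists, and Tubb3 (neural) in all lists but OSKM. The remaining haematopoietic genes, Ptprc and Hbb-bt, had no peak base in any list.

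The triplet repeat is visible in the exons of the fibrillar collagens, many of which code for exactly 6 triplets. Of the 1821 internal coding exons of the 42 collagens, 464 were 54 bases long (25.5%), compared with 1108 of 150035 over all protein-coding genes (0.738%). The 11 fibrillar collagens held 305 of these exons, and in 302 of them an in-frame glycine codon opened each of the 6 triplets. Of the 305 exons, 208 lay whole inside a peak in MEF and 209 in MEF B12, with 140 in OSKM and 191 in OSKM B12. Exons in peaks were not counted over other genes. A like measure is the median share of exon bases in peaks. Over the 18 collagens with at least 10% of the body in peaks in at least 1 list, it was 85.4%, 88.2%, 64.5% and 87.8% in the same order. Over all 9619 genes marked in at least 1 list, it was 72.2%, 75.3%, 50.5% and 74.8%. Lower exon cover in OSKM was therefore not particular to the collagens. The sequences below are from the RefSeq copy of GRCm38.p6, the assembly that mm10 names, and are written 5′ to 3′ on the strand of the gene. Capitals mark the glycine codon that opens each triplet. They were chosen to show 3 kinds of exon, each being the first in its gene with 6 in-frame triplets and the stated pattern: inside a peak in all lists (Col1a1, Col1a2, Col3a1, Col5a1), inside a peak in all lists but OSKM (Col5a2, Col5a3, Col11a1), and outside peaks in all lists (Col2a1).
Col1a1 exon 8 (chr11:94939904-94939957, plus strand): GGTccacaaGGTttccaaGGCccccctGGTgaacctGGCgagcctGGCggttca
Col1a2 exon 8 (chr6:4515481-4515534, plus strand): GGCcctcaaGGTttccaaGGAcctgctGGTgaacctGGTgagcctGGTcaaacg
Col3a1 exon 6 (chr1:45325360-45325413, plus strand): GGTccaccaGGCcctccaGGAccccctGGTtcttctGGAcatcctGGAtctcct
Col5a1 exon 15 (chr2:27965251-27965304, plus strand): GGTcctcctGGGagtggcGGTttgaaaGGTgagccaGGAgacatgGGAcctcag
Col5a2 exon 10 (chr1:45422386-45422439, minus strand): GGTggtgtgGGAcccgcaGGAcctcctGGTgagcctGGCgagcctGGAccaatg
Col5a3 exon 15 (chr9:20801068-20801121, minus strand): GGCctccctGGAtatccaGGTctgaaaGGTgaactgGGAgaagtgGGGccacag
Col11a1 exon 16 (chr3:114112035-114112088, plus strand): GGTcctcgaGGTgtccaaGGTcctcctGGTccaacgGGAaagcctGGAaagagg
Col2a1 exon 6 (chr15:97998545-97998598, minus strand): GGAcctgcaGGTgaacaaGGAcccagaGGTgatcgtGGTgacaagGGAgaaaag

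The exons of Col1a1 and Col5a1 stayed whole inside peaks in every list, with 21 of 21 and 29 of 29 exons of 54 bases. Col1a2 and Col3a1 had 24 of 24 such exons in peaks in MEF, MEF B12 and OSKM B12, and 22 in OSKM. In Col5a3 the number was 25 of 31 in MEF and 28 in MEF B12, with 10 in OSKM and 24 in OSKM B12. In Col11a1 it was 19 of 31 in MEF and 17 in MEF B12, with 2 in OSKM and 15 in OSKM B12. In Col24a1 it was 15 of 33 both in MEF and in MEF B12, with 0 in OSKM and 3 in OSKM B12. The count in OSKM thus ranged from all of these exons in some fibrillar genes to none in Col24a1. None of the 24 such exons of Col2a1 was in a peak in any list.

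**Figure D1:**
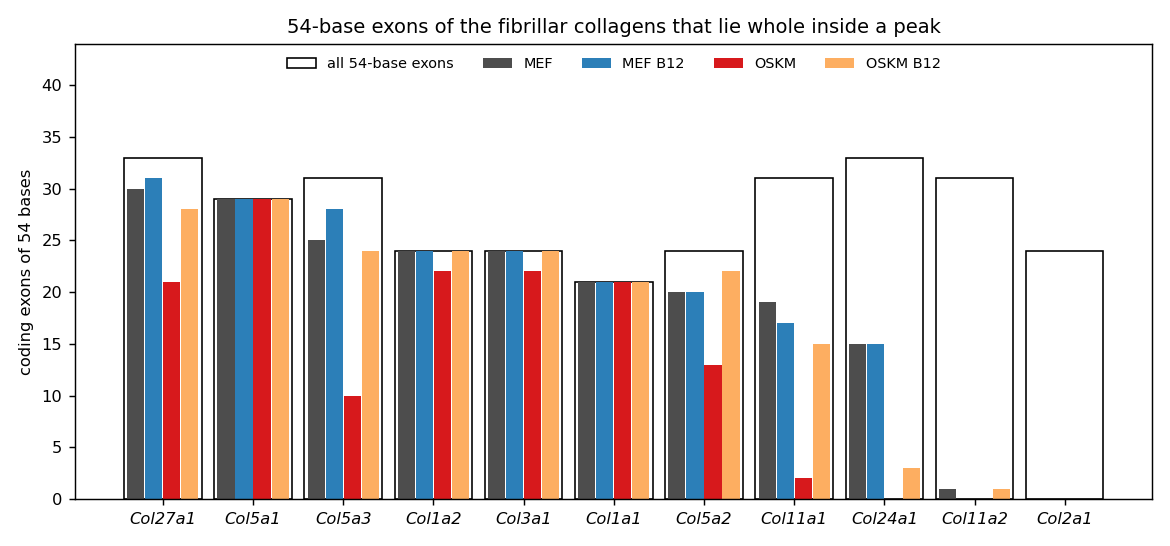
Coding exons of 54 bases in each of the 11 fibrillar collagens (outlined bars) and how many of them lie whole inside an H3K36me3 peak in each of 4 libraries (coloured bars, 1 library each). Col1a1 and Col5a1 are full in all lists, whereas Col24a1 has 15, 15, 0 and 3 of 33.

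In MEF, 18 of 42 collagen genes were marked, beside 43.3% of all genes. The number was 18 in MEF B12 (44.7% of all genes), 14 in OSKM (36.3%) and 17 in OSKM B12 (44.9%). The share of collagens that were marked, 42.9% in MEF, was therefore close to that of all genes. The same 18 genes accounted for the marked collagens in every list. They were 9 of the 11 fibrillar collagens, 3 of 6 beaded-filament collagens, 2 of 4 basement membrane collagens, 3 of 9 FACITs (collagens that sit on the surface of fibrils) and 1 of 3 short-chain network collagens. None of the 4 transmembrane collagens, the 2 multiplexins, the anchoring-fibril collagen Col7a1 or the 2 remaining genes, Col26a1 and Col28a1, was marked in any list.

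The marked collagens were widely covered. Over the 18 genes, the median covered share of the body was 74.3% in MEF and 76.4% in MEF B12, with 51.3% in OSKM and 72.3% in OSKM B12. Over all 9619 genes marked in at least 1 list it was 48.2%, 52.1%, 28.9% and 52.6%. The covered share was lower in OSKM than in MEF in 17 of the 18 collagens, as in 93.4% of those 9619 genes. Col1a1 was the exception. With B12, OSKM cells had the higher covered share in 17 of 18, again with Col1a1 as the exception, as in 96.5% of the marked genes. Nearest to the limit of 10% in MEF were Col24a1 above it, at 17.3%, and Col7a1 below it, at 6.87%.

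**Figure D2:**
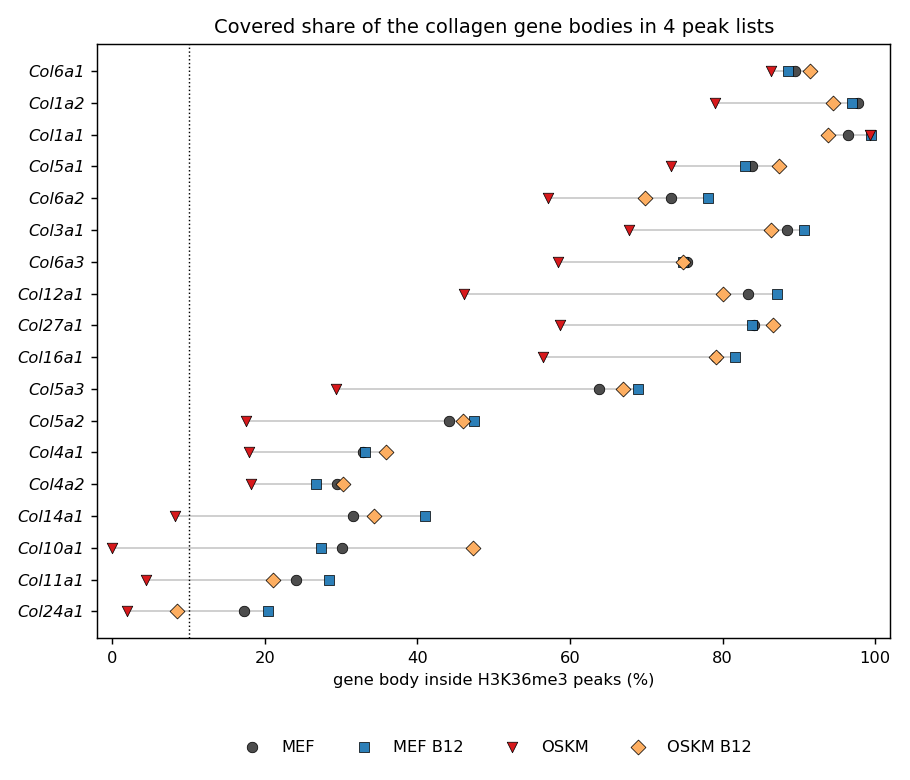
Share of the gene body inside H3K36me3 peaks (x axis, percent) for the 18 collagen genes marked in at least 1 list, ordered by density in MEF, with 1 point per library. The dotted line is the limit of 10%. OSKM (triangles) is the lowest point in 17 of 18 genes, and Col10a1, Col11a1, Col14a1 and Col24a1 fall under the limit there.

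To compare amounts as well as extent, a density was computed for each gene, the sum of the pileup per 1000000 tags over the body bases in peaks, divided by the length of the body. Pileup is the number of sequenced fragments, extended to their full length, over a base. A gene was counted as lower or higher where the density differed at least 1.5-fold after 0.05 was added to both values. By this measure 17 of the 18 marked collagens were lower in OSKM than in MEF, beside 66.8% of all marked genes. In OSKM B12, 17 of 18 were higher than in OSKM, beside 93.5%. In MEF B12, 0 of 18 were higher than in MEF, beside 4.65%. Col1a1 was the gene not lower in OSKM, and Col24a1 the gene not higher in OSKM B12. The median OSKM to MEF density ratio, with 0.05 added, was 0.580 in the collagens and 0.616 over all marked genes. The median density in MEF was 0.483 and 0.274, and the added 0.05 weighs more at low density. The part of this in the difference between the shares was not tested.

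Among the fibrillar collagens, Col1a1 and Col1a2, which encode the chains of type I collagen, the main protein of skin, tendon and bone, were covered almost from end to end. Col1a1 (chr11:94936224-94953042) was covered over 96.5% of its body in MEF and 99.4% in MEF B12, with 99.3% in OSKM and 93.9% in OSKM B12. Its density was 0.751 in MEF (95% interval 0.713 to 0.792), 0.841 in MEF B12, 0.573 in OSKM (0.540 to 0.607) and 1.00 in OSKM B12. OSKM held the lowest pileup of Col1a1 yet left it in 1 unbroken peak of 17401 bases. Its density stood at percentile 97.8 of the marked genes in MEF and at 99.4 in OSKM. Col1a2 (chr6:4505493-4541544), its partner chain, was covered over 97.7%, 96.9%, 79.0% and 94.5%, with densities of 0.843, 0.904, 0.467 and 0.941. Its body lay in 1 peak of 35980 bases in MEF and 1 of 35857 bases in MEF B12, but in 9 peaks in OSKM, the longest of 9873 bases, and in 3 in OSKM B12. The chains of 1 protein therefore differed in OSKM, where Col1a2 was broken up and Col1a1 was not.

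Col3a1 encodes type III collagen, which is found with type I in skin, vessels and other distensible tissue. It was covered over 88.4% of its body in MEF and 90.6% in MEF B12, with 67.8% in OSKM and 86.3% in OSKM B12. Its densities were 0.655, 0.698, 0.359 and 0.670. Its neighbour Col5a2, on the opposite strand with 24.6 kb between the ends of the genes, was marked over a smaller share, 44.1%, 47.4%, 17.5% and 46.0%, with densities of 0.246, 0.281, 0.0781 and 0.254. Both were lowest in OSKM, and in OSKM B12 both were nearer to MEF than to OSKM. Peaks past the ends of the genes covered 35.6% of the 5 kb beyond Col3a1 and 41.8% of the 5 kb beyond Col5a2 in MEF, and 14.7% and 15.5% in OSKM.

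The type V chains, which regulate the diameter of type I fibrils, spanned a wide range. Col5a1 (chr2:27886425-28039514) was covered over 83.9% in MEF and 83.0% in MEF B12, with 73.2% in OSKM and 87.4% in OSKM B12, with densities of 0.707, 0.785, 0.435 and 0.903. It held the longest peak of any collagen, 94563 bases in MEF and 92187 in MEF B12, against 32058 in OSKM and 72335 in OSKM B12. Col5a3 was covered over 63.8%, 68.9%, 29.3% and 66.9%, with densities of 0.302, 0.345, 0.126 and 0.381. From MEF to OSKM the covered share thus changed by -10.6 percentage points in Col5a1, -26.6 in Col5a2 and -34.5 in Col5a3. Col27a1, a fibrillar collagen of cartilage and developing tissue, was covered over 84.1%, 83.9%, 58.7% and 86.6%, with densities of 0.504, 0.573, 0.274 and 0.597.

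Col11a1 and Col24a1, the remaining marked fibrillar genes, had the lowest densities of the 18 in MEF. Col11a1 encodes a chain of type XI collagen, a minor fibril component best known from cartilage, and was covered over 24.1% in MEF and 28.4% in MEF B12, with 4.36% in OSKM and 21.1% in OSKM B12. Its density was 0.111, 0.135, 0.0183 and 0.0981. Col24a1 was covered over 17.3%, 20.3%, 1.96% and 8.41%, with densities of 0.0730, 0.0897, 0.00747 and 0.0349. Both left the marked set in OSKM, and Col24a1 was the only collagen marked in MEF that stayed below 10% in OSKM B12. In contrast, Col2a1, the main collagen of cartilage, had no peak base in any list, and Col11a2 was covered over 1.07% in MEF and 0% in MEF B12, with 0% in OSKM and 5.04% in OSKM B12. Among 7 chondrocyte genes other than collagens, 1 was marked in MEF and 5 had no peak base in any list.

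The beaded-filament collagen Col6a1 (chr10:76708792-76726168) had the highest density of all collagens in every list. Type VI collagen forms beaded filaments around cells from 3 different chains. Col6a1 was covered over 89.4% in MEF and 88.6% in MEF B12, with 86.4% in OSKM and 91.5% in OSKM B12, by 1 peak in each list. Its density was 0.961 in MEF (0.918 to 1.01), 1.08 in MEF B12, 0.617 in OSKM (0.583 to 0.652) and 1.28 in OSKM B12, at or above percentile 99.7 of the marked genes throughout. Col6a2 was covered over 73.2%, 78.1%, 57.1% and 69.8%, with densities of 0.684, 0.820, 0.398 and 0.879. Col6a3 was covered over 75.4%, 74.8%, 58.4% and 74.8%, with densities of 0.530, 0.573, 0.304 and 0.604. By density the 3 chains had the same order, Col6a1, Col6a2, Col6a3, in all lists, whereas by covered share Col6a3 was above Col6a2 in all lists but MEF B12.

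The alternative type VI chains Col6a4, Col6a5 and Col6a6 lie in a row on chromosome 9 on the same strand, with gaps of 27.9 and 29.8 kb, and none was marked. Col6a4 and Col6a5 had no peak base. In Col6a6 the peaks covered 4.07% of the end-side part of the body, from midpoint to end, in MEF. They covered 0% of the start-side part in all lists. The 5 kb past the gene were covered over 100% in MEF, MEF B12 and OSKM B12 and 86.9% in OSKM. In Col17a1 the only peaks of the body lay in the end-side part (13.3% in MEF), and 67.7% of the next 5 kb was covered in MEF. Whether these 5 kb hold other genes was not checked, so their peaks cannot be assigned to Col6a6 or Col17a1.

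Of the 9 FACITs, Col12a1, Col14a1 and Col16a1 were marked. Col12a1, which coats type I fibrils, was covered over 83.3% in MEF and 87.2% in MEF B12, with 46.1% in OSKM and 80.1% in OSKM B12, with densities of 0.527, 0.596, 0.219 and 0.515. Its covered share changed by -37.2 percentage points from MEF to OSKM, the largest difference among the 18, and its density stood at percentile 84.5 of the marked genes in MEF and at 68.4 in OSKM. Col16a1 was covered over 79.1%, 81.6%, 56.4% and 79.1%, with densities of 0.462, 0.528, 0.246 and 0.552. Col14a1, a relative of Col12a1, was covered over 31.5%, 40.9%, 8.15% and 34.3%, with densities of 0.151, 0.208, 0.0329 and 0.170. Col14a1 also showed the largest gain of cover from MEF to MEF B12, 9.43 percentage points. Col9a1, Col9a2, Col19a1, Col20a1 and Col22a1 had no peak base, and Col9a1 and Col19a1 are neighbours whose ends lie 11.3 kb apart. Col9a3 was covered over 0%, 1.37%, 0% and 4.97%.

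The basement membrane genes Col4a1 and Col4a2 encode the chains of the common type IV network and start head to head, their bodies overlapping by 22 bases on chromosome 8. Col4a1 was covered over 32.9% in MEF and 33.2% in MEF B12, with 17.9% in OSKM and 35.8% in OSKM B12, with densities of 0.165, 0.188, 0.0806 and 0.213. Col4a2 was covered over 29.5%, 26.7%, 18.1% and 30.2%, with densities of 0.152, 0.154, 0.0823 and 0.188. Col4a1 had the larger covered share in 3 of the 4 lists. The corresponding pair Col4a3 and Col4a4, chains of the kidney and lung network, also starts head to head, 126 bases apart on chromosome 1, and had no peak base in any list. The relatives Col4a5 and Col4a6 lie on chromosome X and so fall outside the 42 genes.

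Col10a1, the short-chain collagen of hypertrophic cartilage, was covered over 30.1% in MEF and 27.4% in MEF B12, with 0% in OSKM and 47.3% in OSKM B12. Its whole body of 7105 bases lies within the gene Nt5dc1, so 100% of its peak bases are shared and the mark cannot be assigned to Col10a1. Without bases shared with another gene, 17 collagens were marked in MEF. Col18a1, a multiplexin, had 62.8% of its few peak bases in MEF in the overlap with Slc19a1. The other short-chain collagens, Col8a1 and Col8a2, were covered over at most 1.29% and 2.26% of their bodies.

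Outside the 18 marked genes, 13 collagens had no peak base in any list: Col2a1, Col4a3, Col4a4, Col6a4, Col6a5, Col9a1, Col9a2, Col13a1, Col19a1, Col20a1, Col22a1, Col25a1 and Col28a1. At this depth no enrichment was detectable there. A further 11 had some peak bases but were marked in no list: Col6a6, Col7a1, Col8a1, Col8a2, Col9a3, Col11a2, Col15a1, Col17a1, Col18a1, Col23a1 and Col26a1. The highest of these was Col7a1, which ties the basement membrane of skin to the dermis, at 6.87% in MEF and 9.96% in MEF B12, with 4.75% in OSKM and 9.77% in OSKM B12. Counted list by list, 40.5%, 35.7%, 45.2% and 31.0% of all collagens had no peak base in MEF, MEF B12, OSKM and OSKM B12. Over all genes the shares were 47.4%, 46.6%, 50.3% and 46.1%. The median body length was 96.2 kb (7.11 to 260 kb) in the marked collagens and 110 kb (15.9 to 419 kb) in the others.

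The mark sat toward the end of most collagen bodies, as in most marked genes. In MEF, 17 of the 18 genes were more covered between midpoint and end than between start and midpoint, beside 87.8% of all marked genes, and the median covered share was 55.5% of the start-side part and 82.5% of the end-side part. Over all marked genes these medians were 24.6% and 72.7%. In MEF B12, OSKM and OSKM B12, 15, 15 and 16 collagens were more covered in the end-side part. The shares of all marked genes were 88.8%, 83.3% and 88.9%. In Col10a1, whose peak bases are all shared with Nt5dc1, the start-side part was covered over 0% in all lists. The contrast between the parts was also wide in 3 other genes. In Col4a1 the shares in MEF were 1.33% and 64.5%, in Col4a2 3.15% and 55.8%, and in Col5a2 7.20% and 81.0%. In OSKM they were 0% and 35.7%, 0% and 36.3%, and 2.35% and 32.7%. Col16a1 was the exception in MEF, with 83.3% and 74.9%. Exons of the marked collagens had a median cover of 85.4% in MEF and introns of 72.8%, compared with 72.2% and 43.4% over all marked genes.

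**Figure D3:**
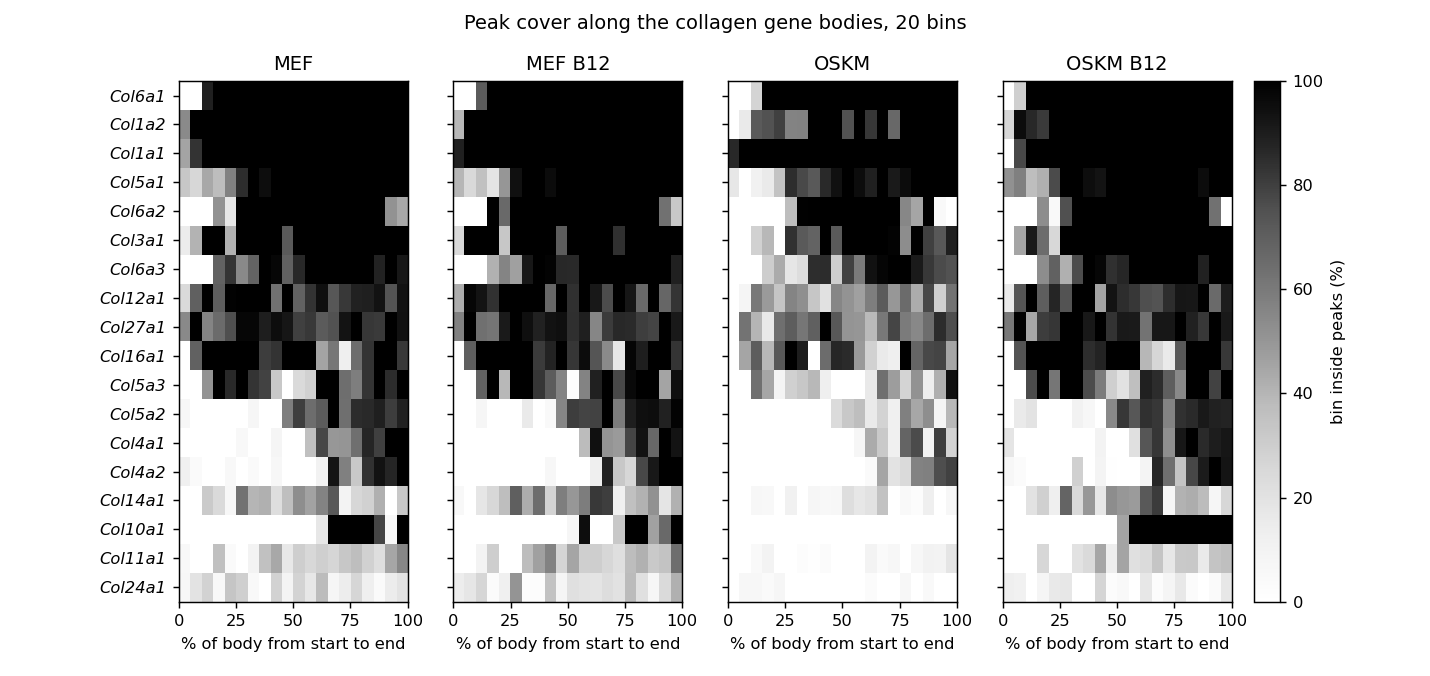
Share of each of 20 equal bins inside H3K36me3 peaks (grey scale, white 0% to black 100%) from the start to the end of the body, for the 18 marked collagens (rows, ordered by density in MEF) in each library (panels). Cover of Col5a2, Col4a1 and Col4a2 is confined mostly to the end-side part in all lists, and the bottom 4 genes are nearly white in OSKM.

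Peaks were also shorter in OSKM. The longest peak touching a collagen was shorter in OSKM than in MEF in 17 of 18 genes, beside 93.5% of all marked genes, and its median length was 14441 bases in MEF and 15738 in MEF B12, with 4905 in OSKM and 16161 in OSKM B12. Over all marked genes this median was 6203, 6988, 2864 and 6891 bases. The number of peaks was higher in OSKM than in MEF in 11 of 18 genes, beside 43.2% of all marked genes, although the total over the 18 genes was similar, at 321, 308, 317 and 286. Several widely covered genes lay in more pieces. Col12a1 went from 24 peaks in MEF to 43 in OSKM and 24 in OSKM B12, and Col27a1 from 16 to 48 and 17. The most sparsely covered genes had fewer peaks instead. Col24a1 had 55 peaks in MEF and 59 in MEF B12, with 8 in OSKM and 31 in OSKM B12, and Col11a1 had 55, 48, 17 and 41.

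**Figure D4:**
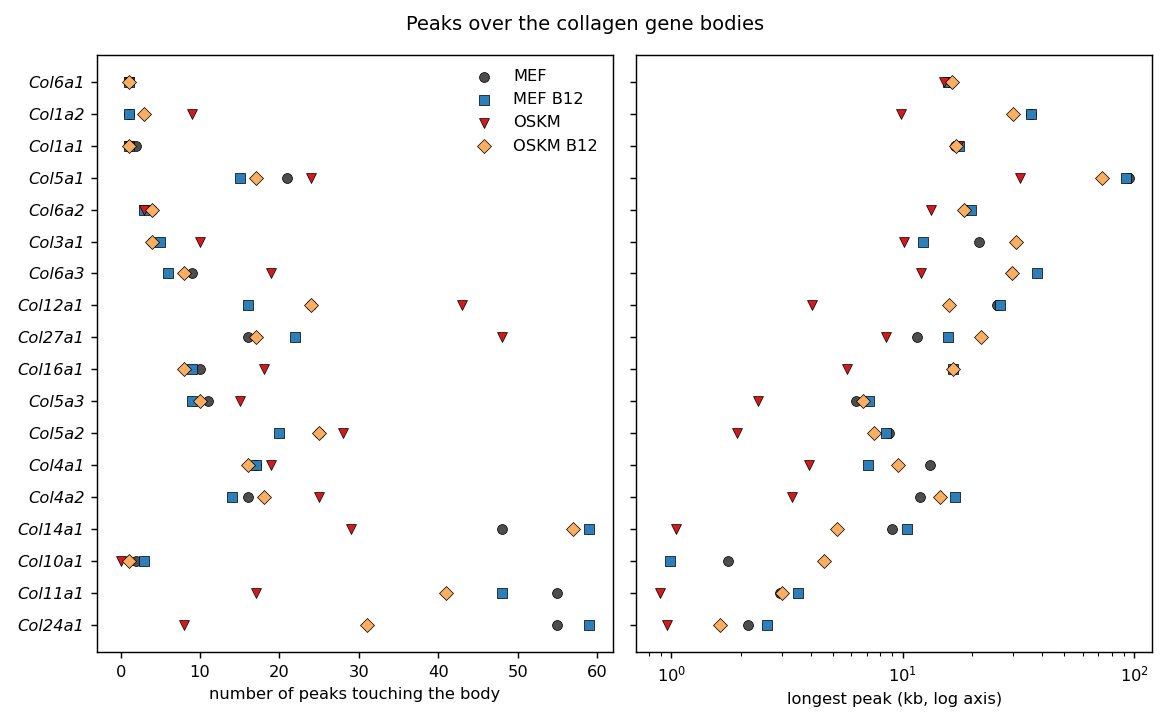
Number of H3K36me3 peaks touching each marked collagen (left) and length of the longest (right, log axis in kb), with 1 point per library. In OSKM (triangles) the longest peak was shorter than in MEF in 17 of 18 genes, while the number of peaks was higher for Col12a1 and Col27a1 and lower for Col11a1 and Col24a1. Col10a1 has no peak in OSKM and no point on the right.

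Covered share depends on which bases were called, so the pileup per 1000000 tags was next compared over bases in a peak in all 4 lists. Such bases were found in 17 of the 18 genes, all but Col10a1. This fixes the bases compared, but the deposited pileup is averaged over each whole peak, so the ratios still depend on how far peaks extend. At the Col1a2 exon printed above, the MEF value was a mean over 35980 bases and the OSKM value a mean over 1915 bases. The part of peak extent in the ratios was not tested. The OSKM to MEF ratio had a median of 0.745 and was below 1 in 17 of 17 genes, with a counting interval wholly below 1 in 15. Over all 8859 marked genes with such bases the median was 0.782, the ratio was below 1 in 96.8% and the interval was below 1 in 67.5%. Intervals are narrower where more tags are counted, as in genes of high density or with many shared bases. The part of this in the shares of intervals, here and below, was not tested. The lowest ratios were those of Col6a1, at 0.665 (0.618 to 0.715), Col5a1, at 0.674 (0.654 to 0.694), and Col1a2, at 0.686 (0.647 to 0.727). Over these bases the pileup of Col6a1 was 1.07 in MEF and 1.22 in MEF B12, with 0.714 in OSKM and 1.40 in OSKM B12. The highest ratios among the marked collagens were those of Col24a1, at 0.911 (0.614 to 1.35), Col11a1, at 0.898 (0.750 to 1.07), and Col5a3, at 0.874 (0.782 to 0.975). Their pileup in MEF was 0.470, 0.484 and 0.492, lower than in the other 14 genes, and the shared bases were few in Col24a1, at 1069. The part of low pileup in these ratios was not tested. Of the collagens that were not marked, Col17a1 had a ratio of 0.931 over 347 bases, Col18a1 of 0.901 over 110 bases and Col6a6 of 0.779 over 1532 bases.

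Over the same bases, the addition of vitamin B12 to the medium was examined. From OSKM to OSKM B12 the median ratio of the collagens was 1.4996, beside 1.4961 over all marked genes, and it was above 1 in 17 of 17, with an interval above 1 in 16. Over all marked genes the ratio was above 1 in 99.2% and the interval in 82.7%. It ranged from 1.14 (0.766 to 1.71) in Col24a1 to 1.97 (1.83 to 2.11) in Col6a1. Col1a1, Col5a1, Col6a1 and Col6a2 had ratios between 1.86 and 1.97, whereas Col3a1, a gene of similar cover, had 1.49 (1.40 to 1.59) and Col12a1 1.37 (1.31 to 1.44). From MEF to MEF B12 the median ratio was 1.10, beside 1.13 over all marked genes. It was above 1 in 17 of 17 genes, with an interval above 1 in 10, beside 93.3% and 41.8% of all marked genes. This direction depended on the scaling, because without division by the number of tags the median was 0.978 and the ratio was above 1 in 5 of 17 genes. Omitting that division moved the median of all marked genes by -0.17 on the log2 scale for this pair and by -0.17 for OSKM B12 over OSKM, where all 17 collagens stayed above 1.

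**Figure D5:**
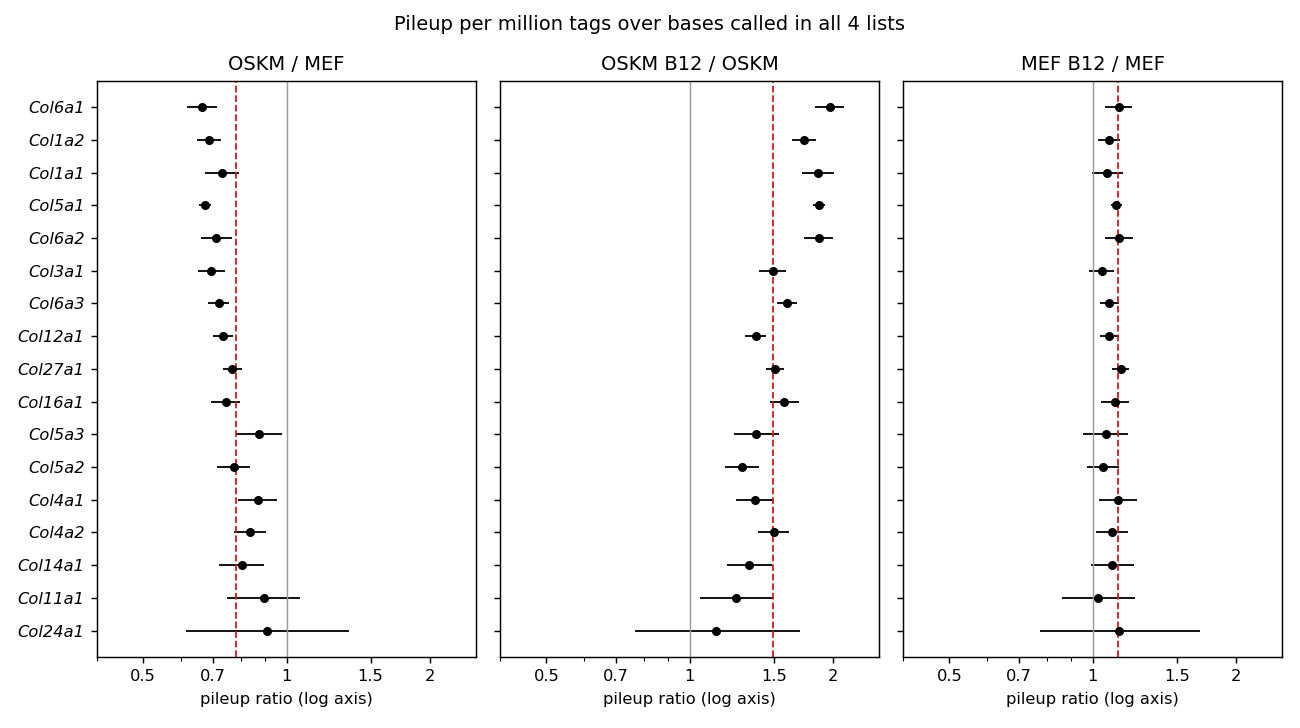
Ratio of H3K36me3 pileup per 1000000 tags over bases in a peak in all 4 lists (x axis, log scale) for 17 marked collagens and 3 pairs of libraries. Bars are 95% counting intervals, the grey line is 1 and the dashed line is the median over all marked genes, 0.782, 1.496 and 1.13 from left to right. In all 17 genes the ratio is below 1 in the left panel and above 1 in the middle panel.

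OSKM B12 was set beside the cells without doxycycline as well. The ratio of OSKM B12 to MEF had a median of 1.18, beside 1.17 over all marked genes, and lay between 0.994 in Col5a2 and 1.36 (1.26 to 1.46) in Col1a1. Against MEF B12 the median was 1.06, beside 1.04, with Col12a1 lowest of the genes whose interval excluded 1, at 0.933 (0.891 to 0.978), and Col1a1 highest, at 1.27 (1.18 to 1.36). In covered share, 8 of the 18 collagens were lower and 10 higher in OSKM B12 than in MEF, where 28.1% of all marked genes were lower. These comparisons share libraries with those above.

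Genes for the enzymes and partners that make, bind or degrade collagen were marked in a larger share than the collagens themselves. Of 52 such genes on lists fixed with earlier results known, 40 were marked in MEF and 40 in MEF B12, with 37 in OSKM and 40 in OSKM B12. Over all genes the marked shares were 43.3%, 44.7%, 36.3% and 44.9%. The median OSKM to MEF ratio over shared bases was 0.735 and the OSKM B12 to OSKM ratio 1.61, beside 0.782 and 1.496 over all marked genes. All 7 genes for export of procollagen from the endoplasmic reticulum and all 4 folding chaperones were marked in every list, as were 11, 11, 10 and 11 of the 12 genes for hydroxylation of the chains. The highest densities in MEF were those of P4hb, the beta subunit of prolyl 4-hydroxylase, at 0.895, Sec31a, a coat protein of export vesicles, at 0.842, and Mia3, a cargo receptor for procollagen, at 0.734. Of the hydroxylation, folding and crosslinking enzymes, P3h2, a prolyl 3-hydroxylase, and Loxl2, a lysyl oxidase, were not marked in MEF. P3h2 was covered over 0%, 0.496%, 0% and 0.494%, and Loxl2 over 3.01%, 4.01%, 0.750% and 2.03%. Of the other lists, 4, 4, 3 and 4 of 8 genes for propeptide removal, 6, 6, 5 and 6 of 8 receptors, 3 of 6 collagenases, 4 of 5 crosslinking enzymes and 1 of 2 glycosyltransferases were marked.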

How the data were processed

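The samples were 8 ChIP–seq libraries, 1 H3K36me3 library and 1 input library in each of 4 conditions, grouped by their labels. Reads were aligned by the authors to mm10 (Bowtie 0.12.9) and duplicates removed, and MACS2 2.2.6 called broad peaks for each condition separately, with its input as control. The deposited pileup is a signal that counts extended fragments per base, averaged over a peak and not scaled between libraries. The authors' fold enrichment is a ratio over the local input, and the deposited significance is a −log10 p-value and a −log10 q-value. Tag totals and fragment lengths were read from the file headers. The depth limits how weak an enrichment could be called, so a gene without a peak is one without detectable enrichment.

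Covered share, pileup per 1000000 tags and density per gene were computed with Python 3.11.15, numpy 2.4.6 and scipy 1.17.1 over GENCODE M21 bodies. Intervals are exact 95% intervals (Clopper-Pearson for ratios, Poisson for densities) of the tag number estimated as summed pileup over fragment length. They leave out variation between cultures and immunoprecipitations. The interval sums were checked on simulated data. Exon bases were read from GRCm38.p6 with samtools 1.23.1. The exon bases of 1 further gene are not reported here.

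The members, the lists of genes and the comparisons were chosen with earlier results of these data known. Values are given for the 10 collagens of highest density in MEF, those marked in some lists only, the 3 lowest and 3 highest OSKM to MEF ratios, neighbours within 50 kb, genes with at least 10% of peak bases in another gene, and, of the partner genes, the 3 of highest density and the unmarked hydroxylation, folding and crosslinking enzymes. The remaining collagens that are named, the exons printed and the genes Col15a1, Col23a1 and Col26a1 were added to account for the family. Alternatives were a −log10 q minimum of 5, a fold enrichment minimum of 2, other limits for a marked gene, bases outside other genes, and other scalings, pseudocounts and folds.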

Additional observations from a re-analysis of the deposited data

Results flagged for a closer look

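In 8 of the 18 marked collagens the covered share moved in opposite directions with vitamin B12 in the cells without and with doxycycline, beside 28.5% of all marked genes, each resting on 1 library per condition, and the difference was not tested. From MEF to MEF B12 the covered share changed by -2.70 percentage points in Col10a1, -2.77 in Col4a2, -0.886 in Col5a1, -0.880 in Col6a1, -0.768 in Col1a2, -0.553 in Col6a3 and -0.217 in Col27a1. In OSKM B12 it was higher than in OSKM in these genes, by 47.3 points in Col10a1, 12.1 in Col4a2, 14.2 in Col5a1, 5.12 in Col6a1, 15.5 in Col1a2, 16.4 in Col6a3 and 27.9 in Col27a1. In Col1a1 the order was the other way round, with a change of 2.99 points from MEF to MEF B12 and of -5.46 points from OSKM to OSKM B12, although its pileup per 1000000 tags over shared bases was higher with B12 in both.

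The 2 collagen genes of chromosome X, which the rule for the family leaves out, carried a few peak bases. Col4a5 was covered over 1.44% of its body in MEF and 1.20% in MEF B12, with 0% in OSKM and 0.592% in OSKM B12. Col4a6 was covered over 0.338%, 0.165%, 0.117% and 0.228%. Neither reached the limit of 10%.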

How the results depend on the processing

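No paired analysis was possible because there was 1 library of each kind per condition. Of 80 alternative values, 49 stayed within counting error or within 1.5 times the count, 30 moved and 1 reversed. The reversal was the MEF to MEF B12 median ratio, 0.978 without division by the number of tags. With peaks of −log10 q of at least 5, 11 collagens were marked in MEF and 5 in OSKM, 11 were at least 1.5-fold lower in OSKM and 2 at least 1.5-fold higher in MEF B12, among 13 marked in any list. The median covered share was then 67.3% in MEF, 70.8% in MEF B12 and 0.916% in OSKM, and the median ratios were 1.79 for OSKM B12 to OSKM, 1.13 for MEF B12 to MEF, 1.13 for OSKM B12 to MEF B12 and 1.30 for OSKM B12 to MEF. With at least 50% of the body required, 11, 11, 9 and 11 collagens were marked, and with at least 1 base 23 in OSKM and 29 in OSKM B12. With a fold of 2, 7 were lower in OSKM and 10 higher in OSKM B12 than in OSKM. Unscaled pileup gave 0.764 for OSKM to MEF, 1.33 for OSKM B12 to OSKM, 1.08 for OSKM B12 to MEF B12 and 1.07 for OSKM B12 to MEF, and fold enrichment gave 0.798, 1.34, 1.03 and 1.10. Without bases shared with other genes, the median covered share was 78.1% in MEF B12, with 56.4% in OSKM and 74.8% in OSKM B12, over 17 genes. The stricter peaks and limits shrink the counts of marked genes by construction, as a fold of 2 does for the fold counts. Stricter peaks do not fix the fold counts in this way, and the count higher in MEF B12 rose from 0 to 2. The cause of the other moves was not tested. The median ratio stayed below 1 for OSKM to MEF and above 1 for OSKM B12 to OSKM under all 6 alternatives run for each. With 1 library per condition, differences between cultures and between immunoprecipitations cannot be told apart from those between conditions.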
